A study of Mus musculus with 6 samples.

Results

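The genes described here encode the lysosome's acid hydrolases, its membrane proteins and the proton pump that acidifies it. They were taken by symbol from the deposited gene table of cultured mouse liver cells: all 49 listed genes were found among its 54532 rows, 6 of them cathepsins, 11 glycosidases, 4 sulfatases, 6 lipid and protein hydrolases or their cofactors, 7 membrane proteins, 7 V0 or accessory genes of the V-ATPase and 8 V1 genes.

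The study sequenced RNA from AML12 cells, an established mouse hepatocyte line derived from a mouse that carried a human TGF-alpha transgene, labelled as parenchymal hepatic cells of genotype WT. A group of 3 libraries is labelled PA/OA for 24 h, the model reagent given at 400 nM PA and 800 nM OA in the submitters' units, and the other group of 3 is labelled PP for 24 h, given at 250 µg/ml. The labels spell out neither PA/OA nor PP, and the design text does not make clear whether the PP cultures also received PA/OA, so each difference below is between the libraries labelled PP and those labelled PA/OA. An untreated control group that the design text mentions was not analysed here. All 6 libraries are of this line, and since the labels do not state whether the replicates were separate cultures, p-values here reflect spread among libraries that could be technical only.

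Lysosomal hydrolases are made in the endoplasmic reticulum, receive a mannose 6-phosphate tag in the Golgi and are carried by receptors to the lysosome, where low pH activates them. The V-ATPase that provides this acidity has a cytosolic V1 domain, which hydrolyses ATP, and a membrane V0 domain, which passes protons. In many cell types the transcription factor TFEB and its relatives bind E-box motifs built around CACGTG (the CLEAR element) near the start sites of many of these genes, and in hepatocytes lysosomes degrade lipid droplets, glycogen and endocytosed lipoprotein.

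Library totals ran from 24113169 to 32560589 counts, and 15718 genes had enough counts to test. The groups differed broadly: 75.0% of all genes tested passed edgeR's quasi-likelihood test (Benjamini-Hochberg adjusted p under 0.05), 35.1% higher and 39.9% lower in PP, with a median log2 fold change (PP minus PA/OA) of -0.09. The change moved with abundance. Among the 5769 genes with an average log2 CPM (CPM being counts scaled to a common library size with TMM factors) of 5 or more, 60.8% were higher, 24.8% were lower and the median was 0.35. The TMM factors were 1.15 to 1.17 in PA/OA and 0.849 to 0.867 in PP, so the choice of scaling shifts every value. With library size only, 3235 genes were higher and 8910 lower over the whole table in place of 5510 and 6275, and with upper-quartile scaling 4241 were higher and 7688 lower. The median of all genes was -0.52 with library size only and -0.32 with upper-quartile scaling. Of 14 hepatocyte markers, Krt8, Krt18, Apob, Hnf4a and Foxa2 were well counted (Apob at 239 to 250 CPM in PA/OA), albumin (Alb) stood at 8.94 to 13.4 CPM over the 6 libraries, and Apoa2 and Ahsg had no count. The cholangiocyte marker Krt19 was abundant, at 1973 to 2080 CPM in PA/OA and 3358 to 3747 CPM in PP.

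Most lysosomal genes were higher in the PP libraries. All 49 could be tested: 40 (81.6%) were higher against 35.1% of all genes, 2 (4.08%) were lower against 39.9%, and 7 did not pass. In all 40 genes called higher, every PP library lay above every PA/OA library, an arrangement seen in 36.1% of all genes tested. Counting both directions, 42 genes had groups that did not overlap, against 77.4% of all genes. Of the 49, 29 were at least 2-fold higher, against 12.1% of all genes. The genes summed to 4381, 4459 and 4473 CPM in the PA/OA libraries and to 10885, 11438 and 11146 CPM in the PP libraries. These sums did not overlap, and their means differed 2.51-fold (4438 ± 49.4 and 11156 ± 276 CPM, SD, n = 3). As a share of raw counts, with no TMM scaling, the 49 genes held 0.515% ± 0.0036 in PA/OA and 0.959% ± 0.0139 in PP (SD, n = 3), 1.86-fold. In RNA from whole cultures, fewer cells that use a gene and less of its RNA per cell cannot be told apart.

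**Figure D1:**
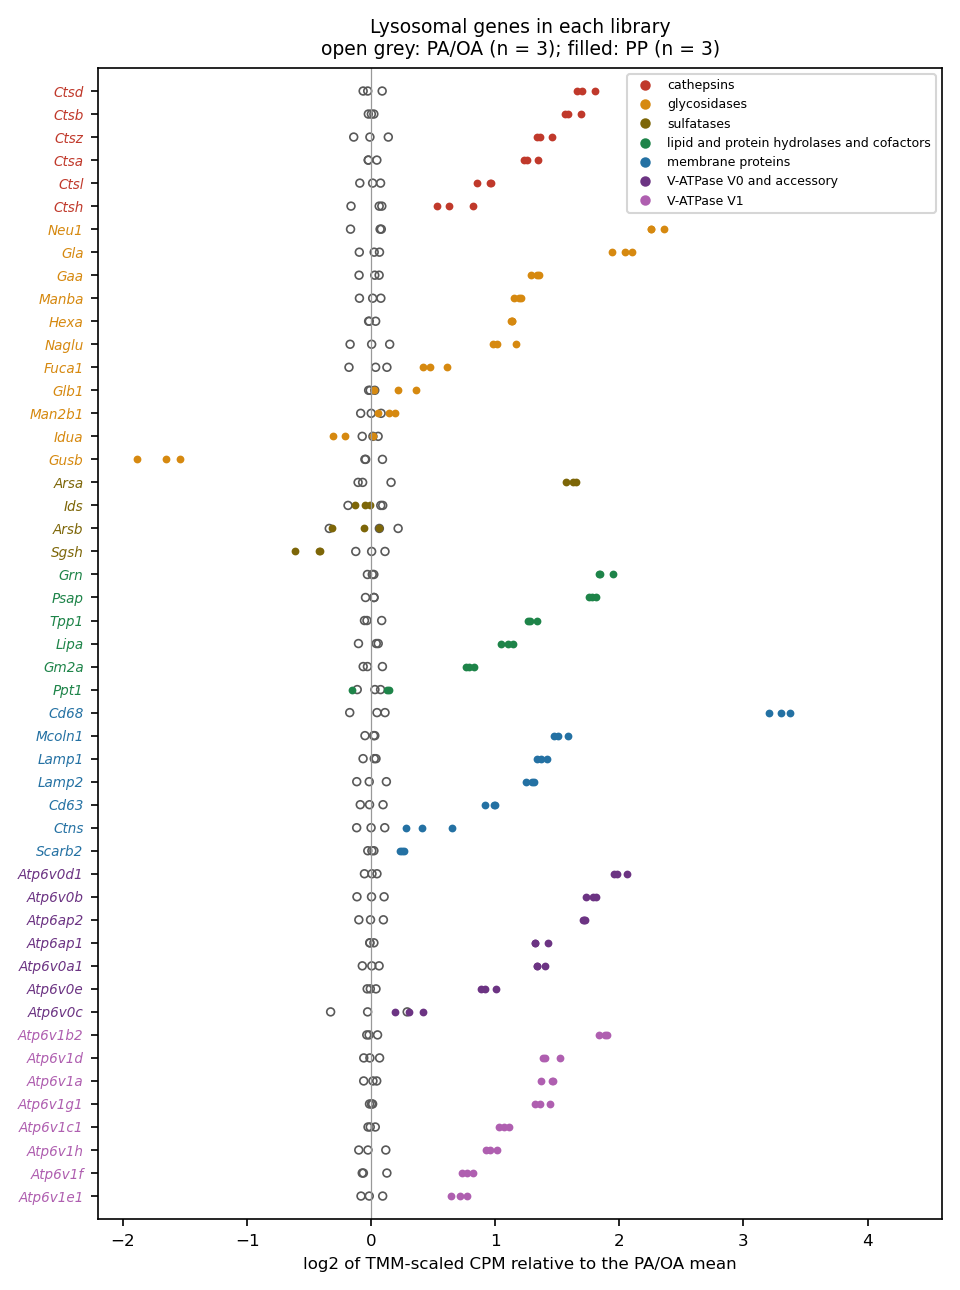
Level of each of the 49 lysosomal genes in each library, as log2 of the TMM-scaled CPM relative to the PA/OA mean (horizontal axis), with 3 open grey points for PA/OA and 3 filled points for PP, coloured by gene group. In 40 genes all 3 filled points lie to the right of the open ones, Gusb and Sgsh lie to the left, and 7 genes overlap.

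The median log2 fold change of the 49 genes was 1.18, which is 1.27 above that of all genes tested, and it ranged from -1.69 to 3.30. The median of the genes in single libraries, relative to the PA/OA mean, was between -0.01 and 0.01 in PA/OA and was 1.15, 1.20 and 1.19 in PP. Most of these genes were abundant: 39 lay at an average log2 CPM of 5 or more, and of those 37 were higher, against 60.8% of genes that abundant, none was lower and their median was 1.32 against 0.35. In the same 37 every PP library was above every PA/OA library, as in 60.9% of genes that abundant. The 10 less abundant ones held 3 higher, both lower and 5 that did not pass. When each library's trend with abundance was removed, 41 of the 49 were higher, against 36.1% of all genes, 3 were lower and the median was 0.83. With library size only, 37 were higher, against 20.6% of all genes, 8 were lower and the median was 0.75. The distance from the median of all genes was 0.82 with the abundance trend removed, and library size only, which shifts all genes alike, cannot change it.

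**Figure D2:**
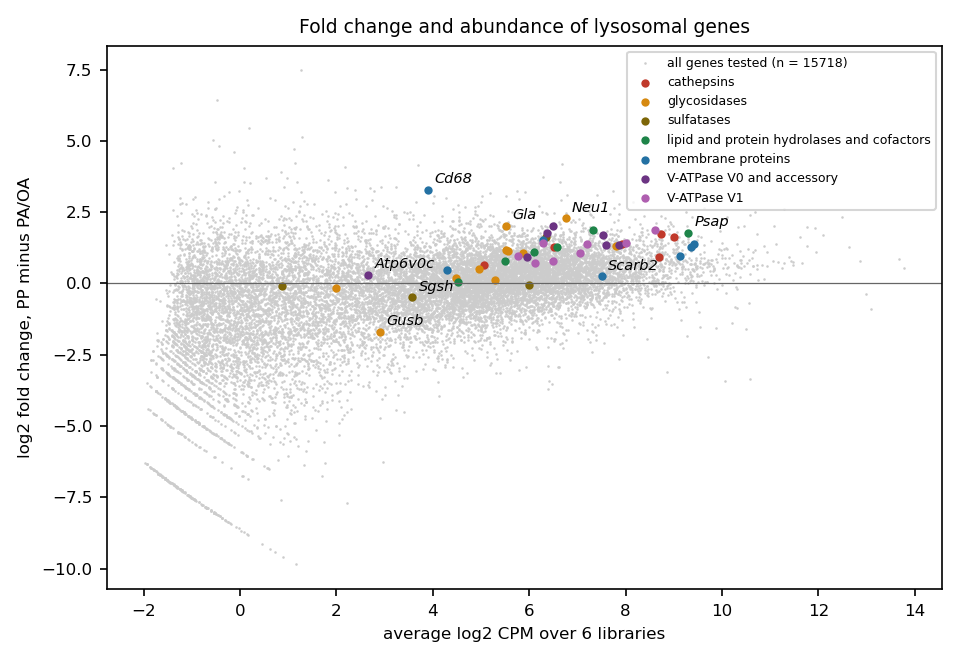
Log2 fold change (PP minus PA/OA, vertical axis) against average log2 CPM over the 6 libraries (horizontal axis), with grey points for all 15718 genes tested and coloured points for the 49 lysosomal genes by group. Of genes with an average log2 CPM of 5 or more, 60.8% were called higher, and 39 of the 49 lysosomal genes lie above the 0.35 median of genes with an average log2 CPM of 5 or more.

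Markers of macrophages, cells rich in lysosomes, were mostly near 0. Of 14 macrophage markers, 5 had no count in any library (Adgre1, Clec4f, Cd5l, Marco and Timd4), 10 had under 10 counts in each library, and of the 3 tested none was higher and 1, the lipopolysaccharide co-receptor Cd14, was lower. Their summed level was 52.2 to 62.1 CPM in PA/OA and 28.7 to 29.1 CPM in PP, nearly all of it Cd14. With the abundance trend removed Lyz2, at 0.319 to 0.579 CPM, passed as higher (1.66). Of 8 stellate and fibroblast markers 3 were tested, with none higher and 2 lower, and the 1 endothelial marker tested did not pass. Of 5 cholangiocyte markers 4 were tested and all 4 were higher, from a summed 2429 to 2554 CPM in PA/OA to 4053 to 4496 CPM in PP. Most of that sum was Krt19 and Krt7, which were lower with the abundance trend removed (-0.11 and -0.26), and with library size only Krt7 did not pass (-0.11). Spp1 (1.37) and Sox9 (0.71) stayed higher past the test with the trend removed (0.93 and 0.60) and with library size only (0.93 and 0.27). Of 14 hepatocyte markers 10 were tested, with 3 higher (Krt18 at 0.83, Foxa2 at 0.45 and Krt8 at 0.17 on the log2 scale) and 4 lower, among them Apob at -1.70, Hnf4a at -1.42 and Alb at -0.31. Under other scalings, Krt8 was lower with the abundance trend removed (-0.69) and with library size only (-0.27), Krt18 did not pass with the trend removed (0.02), Foxa2 did not pass with library size only (0.01) and Alb did not pass with the trend removed (-0.07). Apoa1 and Trf, at 1.53 to 3.69 CPM, went the other way. They did not pass in the main fit (0.42 and 0.51) but passed as higher with the trend removed (1.04 and 1.07). Every PP library of Trf lay above every PA/OA library. The part of these cholangiocyte and hepatocyte markers in the lysosomal differences was not tested.

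The promoters below show where the core of the CLEAR element lies in these genes. RefSeq windows of 300 bases (build GRCm38.p6), from 250 before to 50 after an annotated start, were given for 43 of the 49 genes. Printed is the window of the gene with the largest rise among those holding the motif in each group that had any, 5′ to 3′ on the gene's own strand, with the motif match in capitals.
Ctsd (chr7:142387778-142388077, minus strand): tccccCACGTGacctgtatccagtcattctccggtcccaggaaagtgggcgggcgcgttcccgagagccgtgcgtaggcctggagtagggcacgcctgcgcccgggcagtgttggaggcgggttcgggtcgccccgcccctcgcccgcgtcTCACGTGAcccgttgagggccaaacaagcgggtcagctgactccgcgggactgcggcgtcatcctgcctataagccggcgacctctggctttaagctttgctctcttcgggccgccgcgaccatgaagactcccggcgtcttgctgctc
Gla (chrX:134600956-134601255, minus strand): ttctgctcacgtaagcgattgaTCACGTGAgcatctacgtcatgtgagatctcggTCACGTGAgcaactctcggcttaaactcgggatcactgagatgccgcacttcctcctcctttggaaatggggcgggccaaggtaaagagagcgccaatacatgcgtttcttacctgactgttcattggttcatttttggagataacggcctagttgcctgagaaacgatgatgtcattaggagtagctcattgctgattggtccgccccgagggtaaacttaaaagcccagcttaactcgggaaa
Arsa (chr15:89477375-89477674, minus strand): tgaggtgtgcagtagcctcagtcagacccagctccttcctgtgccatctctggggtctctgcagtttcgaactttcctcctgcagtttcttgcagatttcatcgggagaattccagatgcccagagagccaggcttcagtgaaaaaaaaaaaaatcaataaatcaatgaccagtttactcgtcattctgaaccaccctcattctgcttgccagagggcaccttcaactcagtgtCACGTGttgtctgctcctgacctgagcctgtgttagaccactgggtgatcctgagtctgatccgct
Mcoln1 (chr8:3500269-3500568, plus strand): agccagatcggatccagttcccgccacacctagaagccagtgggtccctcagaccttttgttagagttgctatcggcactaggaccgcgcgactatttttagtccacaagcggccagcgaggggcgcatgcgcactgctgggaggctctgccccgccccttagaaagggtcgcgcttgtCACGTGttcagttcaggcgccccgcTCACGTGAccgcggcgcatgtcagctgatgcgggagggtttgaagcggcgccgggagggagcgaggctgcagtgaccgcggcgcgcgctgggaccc
Atp6v0d1 (chr8:105566015-105566314, minus strand): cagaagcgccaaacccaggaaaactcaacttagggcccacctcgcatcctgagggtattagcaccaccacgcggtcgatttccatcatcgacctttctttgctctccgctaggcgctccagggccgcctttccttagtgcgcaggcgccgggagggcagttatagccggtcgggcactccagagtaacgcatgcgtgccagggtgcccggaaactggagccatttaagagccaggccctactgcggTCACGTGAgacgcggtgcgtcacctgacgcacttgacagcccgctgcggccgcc
Atp6v1a (chr16:44139210-44139509, minus strand): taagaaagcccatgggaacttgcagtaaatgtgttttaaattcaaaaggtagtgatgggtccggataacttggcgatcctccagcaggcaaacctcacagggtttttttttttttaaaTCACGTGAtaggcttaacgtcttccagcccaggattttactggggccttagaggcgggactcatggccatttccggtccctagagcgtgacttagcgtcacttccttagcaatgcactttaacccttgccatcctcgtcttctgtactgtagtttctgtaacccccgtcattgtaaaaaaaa

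The motifs searched were CACGTG and its extensions TCACGTGA and the full CLEAR palindrome of 10 bases, each of which reads the same on both strands and lies within the next longer form. CACGTG stood in 15 of the 43 genes (34.9%), against 1159 of the 10014 tested genes with a window (11.6%) and 7.15% of all 32851 windows. TCACGTGA stood in 7 of the 43 (16.3%), against 2.18% of tested genes and 0.974% of windows. The full palindrome was in none of the 43 and in 0.819% of tested genes. Counted from the annotated start, with negative positions before it, the core begins at -245 and -98 in Ctsd, -227 and -194 in Gla, -16 in Arsa, -71 and -45 in Mcoln1, -3 in Atp6v0d1 and -131 in Atp6v1a. Lamp1, whose window is not printed, held the most copies, 4.

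Most genes with the motif and most genes without it were higher. Of the 15 with CACGTG, 13 were higher, 1 (Sgsh) was lower and 1 (Glb1) missed the threshold; their median log2 fold change was 1.38. Of the 28 without it, 21 were higher, 1 (Gusb) was lower and 6 missed the threshold; their median was 1.03. The genes with the largest rises, Cd68 and Neu1, had no match in their windows, nor did any of the 6 lipid and protein hydrolases and cofactors. A match describes letters in a window, not a binding site.

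The 6 listed cathepsins, of the family that holds the lysosome's main proteases, all rose. All 6 were higher, against 35.1% of all genes and 60.8% of genes with an average log2 CPM of 5 or more. Their log2 fold changes were 0.66 to 1.72, with a median of 1.33. Cathepsin D (Ctsd, chr7:142375911-142388038 in mm10), the main aspartic protease, stood at 193, 188 and 210 CPM in PA/OA and at 621, 688 and 641 CPM in PP. The lowest PP library was thus far above the highest PA/OA library, and the log2 fold change was 1.72 ± 0.06 (SE), with an edgeR adjusted p of 1.11e-16. Cathepsin B (Ctsb, chr14:63122462-63145923), a cysteine protease, was at 255, 251 and 258 CPM in PA/OA and 751, 821 and 765 CPM in PP. Its groups were also wide apart, with a log2 fold change of 1.61 ± 0.05 (edgeR adjusted p = 8.55e-17). Cathepsin Z (Ctsz), a carboxypeptidase, rose by 1.39 and cathepsin A (Ctsa), the serine carboxypeptidase that protects neuraminidase 1 and beta-galactosidase, rose by 1.28 on the log2 scale.

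The smaller changes among these 6 belonged to Ctsl and Ctsh. Cathepsin L (Ctsl), an endopeptidase, had 268, 300 and 287 CPM in PA/OA and 516, 558 and 554 CPM in PP, a log2 fold change of 0.93 ± 0.06, which was 0.33 with the abundance trend removed. Cathepsin H (Ctsh), mainly an aminopeptidase, had 26.8, 27.2 and 22.9 CPM in PA/OA and 37.2, 39.6 and 45.4 CPM in PP, a log2 fold change of 0.66 ± 0.09 (edgeR adjusted p = 1.24e-06). Neither gene's groups overlapped. Per length, neighbouring cathepsins overlapped in PA/OA and were better separated in PP. In PA/OA the highest levels were Ctsz at 93.2 and Ctsd at 83.9 CPM per kb, whose libraries overlapped, followed by Ctsl at 43.9 and Ctsb at 42.1, which also overlapped, and then Ctsa at 11.3 and Ctsh at 5.71. In PP the order was Ctsd at 276, Ctsz at 244, Ctsb at 129, Ctsl at 83.6, Ctsa at 27.4 and Ctsh at 9.05 CPM per kb. The length used for each of the 6 equals all its annotated exon bases in GENCODE M21, from 1441 in Ctsz to 6489 in Ctsl. This order between genes thus depends on annotation as well as on counts.

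Glycosidases, which remove sugars from glycoproteins, glycolipids and glycogen, were mixed. Of 11, 7 (63.6%) were higher, 1 was lower and 3 missed the threshold, and the median log2 fold change was 1.06. Over all genes 35.1% were higher and 39.9% lower. Among genes with an average log2 CPM of 5 or more 60.8% were higher, near the share of the glycosidases, and 24.8% lower, against 9.09% of the glycosidases. Fuca1, Glb1, Gusb and Idua lay below that abundance. Neuraminidase 1 (Neu1, chr17:34931253-34935953), the lysosomal sialidase, stood at 38.6, 32.7 and 38.9 CPM in PA/OA and at 176, 189 and 176 CPM in PP. All PP libraries were far above the highest PA/OA library, with a log2 fold change of 2.29 ± 0.07 (edgeR adjusted p = 1.79e-17). Alpha-galactosidase A (Gla, chrX:134588149-134601125), which clears globotriaosylceramide, was at 19.0, 18.5 and 17.0 CPM in PA/OA and 69.6, 74.9 and 78.1 CPM in PP. Its groups were as clearly apart, with a log2 fold change of 2.03 ± 0.08 (edgeR adjusted p = 1.01e-15). Acid alpha-glucosidase (Gaa), which breaks down glycogen in the lysosome, rose by 1.32, the beta-mannosidase gene Manba by 1.18 and Naglu, a heparan sulfate enzyme, by 1.06 on the log2 scale.

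Hexa, the alpha chain of beta-hexosaminidase A, varied little within each group. It had 30.1, 29.1 and 29.0 CPM in PA/OA and 64.5, 64.7 and 64.3 CPM in PP, a log2 fold change of 1.13 ± 0.07. The fucosidase gene Fuca1 had 26.4, 22.8 and 28.2 CPM in PA/OA and 35.9, 39.4 and 34.5 CPM in PP. These groups did not overlap and the log2 fold change was 0.51 ± 0.09 (edgeR adjusted p = 3.8e-05), but it was 0.07 and no longer passed with library size only.

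Beta-glucuronidase (Gusb, chr5:129989011-130003049), which degrades glycosaminoglycans, went the other way. It stood at 10.8, 11.9 and 10.8 CPM in PA/OA and at 3.83, 3.55 and 3.02 CPM in PP, so that every PP library was below every PA/OA library. The log2 fold change was -1.69 ± 0.16 (edgeR adjusted p = 3.61e-09), 3.23-fold lower. It remained lower under library size only (-2.12) and with the abundance trend removed (-1.36). Glb1 (beta-galactosidase) had a log2 fold change of 0.21 ± 0.10, Man2b1 (alpha-mannosidase) of 0.13 ± 0.08 and Idua (alpha-iduronidase, at 3.31 to 4.25 CPM) of -0.16 ± 0.20, and none of the 3 passed the test. Their libraries overlapped. With library size only, Glb1 at -0.23, Man2b1 at -0.31 and Idua at -0.60 did pass, as lower, and Glb1 passed as higher without PP replicate 1 (0.31) and with the abundance trend removed (0.26).

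The 4 sulfatases, which remove sulfate from glycosaminoglycans and sulfatide, did not move together, with 1 higher, 1 lower and 2 that did not pass. Over all genes 35.1% were higher and 39.9% lower. The median log2 fold change of the 4 was -0.08. Arylsulfatase A (Arsa, chr15:89472476-89477425), which acts on sulfatide, was at 44.9, 38.3 and 37.4 CPM in PA/OA and at 120, 126 and 124 CPM in PP. The groups were wide apart, with a log2 fold change of 1.61 ± 0.07 (edgeR adjusted p = 6.94e-15). The heparan sulfatase gene Sgsh (chr11:119343425-119355536) had 14.9, 12.6 and 13.8 CPM in PA/OA and 9.0, 10.3 and 10.3 CPM in PP. All its PP values were the lower ones, with a log2 fold change of -0.48 ± 0.12 (edgeR adjusted p = 0.00164), but with the abundance trend removed it was -0.26 and did not pass (adjusted p = 0.0711).

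Neither of the other two sulfatases passed. Iduronate 2-sulfatase (Ids) had 68.7, 69.4 and 57.2 CPM in PA/OA and 59.5, 62.9 and 64.6 CPM in PP, a log2 fold change of -0.06 ± 0.07. Arylsulfatase B (Arsb), which acts on dermatan and chondroitin sulfate, was low in every library at 1.43 to 2.11 CPM, with a log2 fold change of -0.10 ± 0.30, so that a moderate difference was not detectable at this depth. Ids passed as lower with library size only (-0.50), upper-quartile scaling (-0.30) and the abundance trend removed (-0.31).

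Of the 6 hydrolases of lipid and protein with their cofactors, 5 (83.3%) were higher, with a median log2 fold change of 1.20. Over all genes 35.1% were higher, and among genes with an average log2 CPM of 5 or more 60.8%. Their sum differed 3.04-fold (506 ± 2.82 and 1537 ± 18.9 CPM, SD, n = 3), and most of it was Psap. Prosaposin (Psap, chr10:60277627-60302597), the precursor of the saposins that present sphingolipids to their hydrolases, stood at 288, 275 and 288 CPM in PA/OA and 976, 997 and 960 CPM in PP. Its groups were far apart, with a log2 fold change of 1.78 ± 0.05 (edgeR adjusted p = 1.07e-17). Progranulin (Grn, chr11:102430315-102437048), a secreted and lysosomal protein cut into granulins, had 68.7, 66.9 and 69.3 CPM in PA/OA and 263, 244 and 245 CPM in PP. The PP libraries again stood well above, with a log2 fold change of 1.87 ± 0.06 (edgeR adjusted p = 1.84e-17). Per length, Psap was at 103 CPM per kb in PA/OA and 356 CPM per kb in PP.

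Lysosomal acid lipase (Lipa, chr19:34492318-34527474), which hydrolyses cholesteryl esters and triglycerides of endocytosed lipoprotein and of lipid droplets, rose 2.14-fold. It had 45.3, 44.8 and 40.5 CPM in PA/OA and 90.1, 93.3 and 96.1 CPM in PP, with no overlap (log2 fold change 1.10 ± 0.07, edgeR adjusted p = 1.94e-12). Tripeptidyl peptidase 1 (Tpp1) rose by 1.29 and Gm2a, the activator that lifts GM2 ganglioside out of the membrane, by 0.79 on the log2 scale. Ppt1, the palmitoyl-protein thioesterase, had 20.7, 22.9 and 23.6 CPM in PA/OA and 20.1, 24.7 and 24.5 CPM in PP. Its groups overlapped (log2 fold change 0.05 ± 0.10, edgeR adjusted p = 0.69), and with library size only it was lower (-0.39).

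All 7 membrane protein genes were higher, over a wide range. Over all genes 35.1% were higher, and among genes with an average log2 CPM of 5 or more 60.8%. The largest change of all 49 genes was that of Cd68 (chr11:69664213-69666153), a heavily glycosylated relative of the LAMP proteins best known as a macrophage marker. It stood at 2.87, 2.46 and 3.00 CPM in PA/OA (90, 74 and 84 counts) and at 25.6, 27.4 and 28.9 CPM in PP (609, 757 and 794 counts). Every PP library was many times the highest PA/OA library, and the log2 fold change was 3.30 ± 0.13 (edgeR adjusted p = 1.3e-15), 9.83-fold. Cd68 rose while the other macrophage markers, given above, had no count, had few counts or were lower.

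The LAMP proteins Lamp1 and Lamp2, which line the inner face of the lysosomal membrane, rose by similar amounts. Lamp1 (chr8:13159161-13175338) had 366, 390 and 393 CPM in PA/OA and 967, 1024 and 990 CPM in PP. Lamp2 (chrX:38401357-38456454) had 375, 413 and 350 CPM in PA/OA and 902, 929 and 944 CPM in PP. In both genes the PP libraries were all far above any PA/OA library, and the log2 fold changes were 1.38 ± 0.05 and 1.29 ± 0.06. Per length, Lamp1 was at 143 CPM per kb in PA/OA and 371 in PP. The tetraspanin Cd63 had 355, 374 and 404 CPM in PA/OA and 714, 754 and 750 CPM in PP, a log2 fold change of 0.97 ± 0.06, which was 0.32 with the abundance trend removed.

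Mucolipin 1 (Mcoln1, chr8:3500457-3515232), the lysosomal calcium channel, was at 41.0, 39.0 and 41.2 CPM in PA/OA and at 112, 121 and 115 CPM in PP. Its groups were far apart (log2 fold change 1.52 ± 0.06, edgeR adjusted p = 3.05e-15). The cystine exporter Ctns, at 15.2, 16.5 and 17.8 CPM in PA/OA and 20.1, 21.9 and 25.9 CPM in PP, rose by 0.46 ± 0.11, and Scarb2, the receptor that carries beta-glucocerebrosidase to the lysosome, at 167, 169 and 163 CPM in PA/OA and 195, 198 and 199 CPM in PP, rose by 0.25 ± 0.05 on the log2 scale. These small changes were sensitive to scaling. With library size only, Ctns was at 0.02 and did not pass and Scarb2 was lower (-0.19). With upper-quartile scaling neither passed (0.22 and 0.01), and Scarb2 was lower with the abundance trend removed (-0.21).

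**Figure D3:**
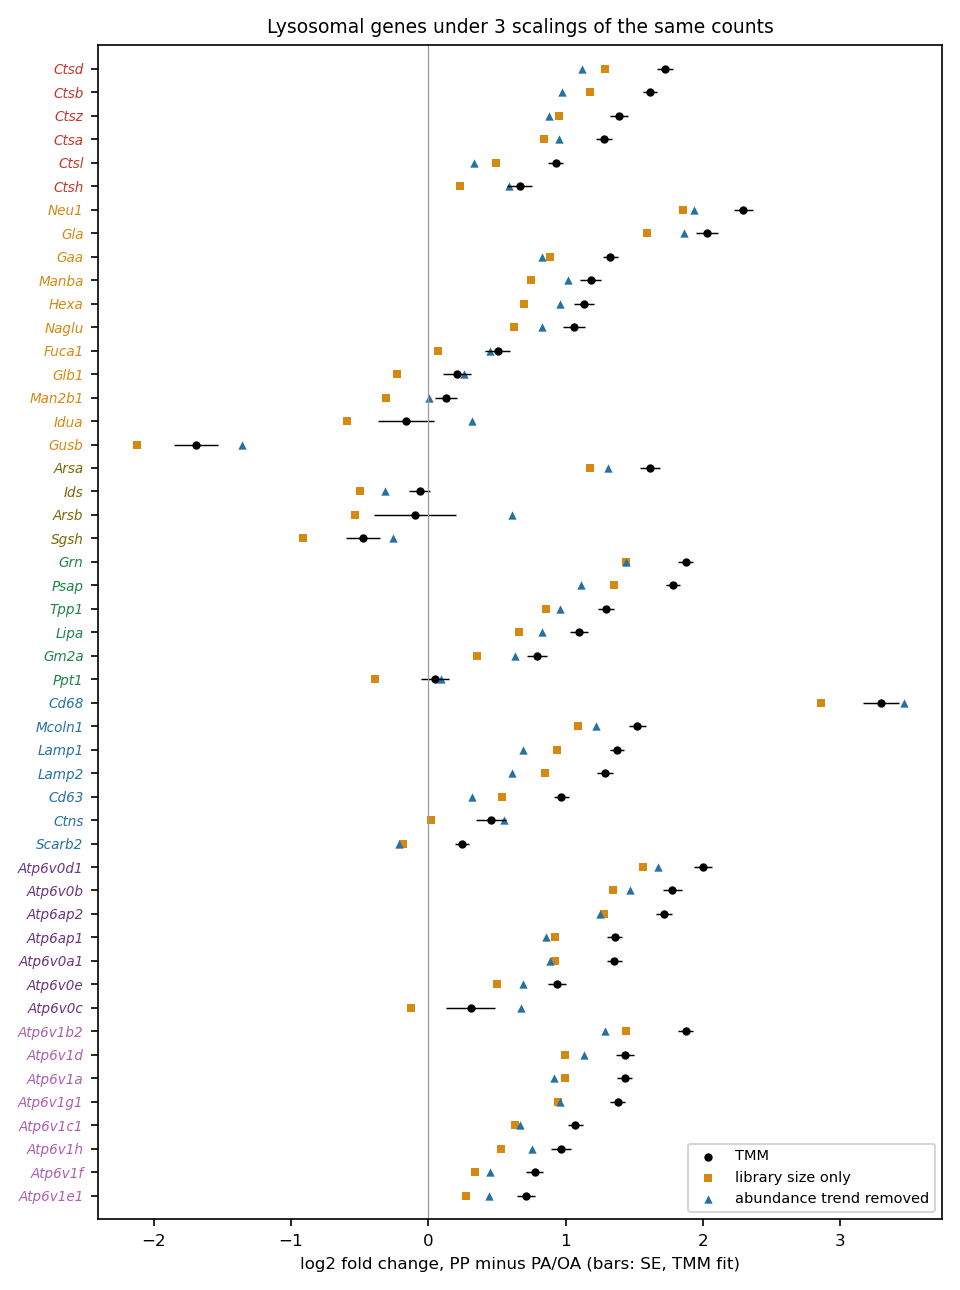
Log2 fold change (PP minus PA/OA, horizontal axis) of each of the 49 lysosomal genes with TMM scaling (black circles, bars SE), with library size only (orange squares) and with each library's abundance trend removed (blue triangles). Most genes stay to the right of 0 under the 3 scalings, and Scarb2, at 0.25, -0.19 and -0.21, changes sides. Glb1, Man2b1, Ppt1 and Atp6v0c lie to the left of 0 with library size only, and Idua and Arsb to the right only with the trend removed.

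The V-ATPase rose across both domains: of 15 genes 14 (93.3%) were higher, and Atp6v0c did not pass. Over all genes 35.1% were higher, and among genes with an average log2 CPM of 5 or more 60.8%. Among the 7 V0 and accessory genes 6 were higher, with a median log2 fold change of 1.36. Atp6v0d1 (chr8:105524465-105566047), which encodes the d subunit that joins V0 to the central stalk, stood at 37.2, 34.7 and 36.2 CPM in PA/OA and at 140, 151 and 142 CPM in PP. The groups were wide apart, with a log2 fold change of 2.00 ± 0.06 (edgeR adjusted p = 3.28e-17). Atp6v0b, a subunit of the proton-carrying ring, rose by 1.78, Atp6v0a1, an isoform of the membrane subunit that forms the proton path, by 1.36 and the small subunit gene Atp6v0e by 0.94. The accessory protein genes rose too: Atp6ap2, also known as the prorenin receptor, had 86.1, 92.6 and 80.7 CPM in PA/OA and 285, 284 and 283 CPM in PP, a log2 fold change of 1.71 ± 0.06, and Atp6ap1 rose by 1.36.

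Atp6v0c, the main subunit of the ring, had 4.50, 5.53 and 6.89 CPM in PA/OA and 7.53, 6.44 and 6.95 CPM in PP. The groups overlapped, with a log2 fold change of 0.31 ± 0.18 (edgeR adjusted p = 0.121). It passed as higher without PA/OA replicate 3 (0.48) and with the abundance trend removed (0.67). Its count is uncertain, since the table also lists an annotated pseudogene of it, Atp6v0c-ps2, that drew more counts than the gene: 34.3, 31.6 and 32.3 CPM in PA/OA and 61.9, 71.4 and 68.4 CPM in PP. The gene held 14.6% of the counts of the pair in PA/OA and 9.33% in PP. Summed, the pair had 38.4 ± 1.08 CPM in PA/OA and 74.2 ± 4.35 CPM in PP (SD, n = 3), 1.93-fold. This pair was chosen after its values were seen.

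All 8 V1 genes were higher, against 35.1% of all genes and 60.8% of genes with an average log2 CPM of 5 or more. Their median log2 fold change was 1.22. Atp6v1b2 (chr8:69088646-69113711), the B subunit of the ATP-hydrolysing head, stood at 162, 172 and 164 CPM in PA/OA and at 594, 614 and 621 CPM in PP. Its libraries were tightly grouped and far apart, with a log2 fold change of 1.87 ± 0.05 (edgeR adjusted p = 7.07e-18). The catalytic A subunit, Atp6v1a (chr16:44085402-44139705), had 133, 143 and 140 CPM in PA/OA and 358, 383 and 380 CPM in PP, a log2 fold change of 1.43 ± 0.05. Among the stalk subunits, Atp6v1d rose by 1.43, Atp6v1g1 by 1.38, Atp6v1c1 by 1.07, Atp6v1f by 0.77 and Atp6v1e1 by 0.71, and the regulatory subunit gene Atp6v1h rose by 0.97 on the log2 scale. Atp6v1e1, the smallest of these changes, was at 49.8, 56.2 and 52.1 CPM in PA/OA and 82.3, 89.9 and 86.6 CPM in PP, and its groups did not overlap.

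Levels of the pump genes per length spanned a wide range. In PA/OA Atp6v1g1 was highest at 71.7 CPM per kb, followed by Atp6v1f at 62.5, Atp6ap1 at 43.1, Atp6ap2 at 33.0 and Atp6v1b2 at 31.3, with overlapping libraries for the last pair. In PP Atp6v1g1 was again highest at 186 CPM per kb, and Atp6v1b2 at 115, Atp6ap1 at 110, Atp6ap2 at 108 and Atp6v1f at 107 followed with overlapping neighbours. Apart from Atp6v1g1, the order near the top thus rests on differences within the spread of neighbouring genes in PP. At the lower end, Atp6v1h was at 3.81 CPM per kb in PA/OA and 7.44 in PP, and Atp6v0c at 1.67 and 2.06. The place of Atp6v0c leaves out the counts assigned to its pseudogene.

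**Figure D4:**
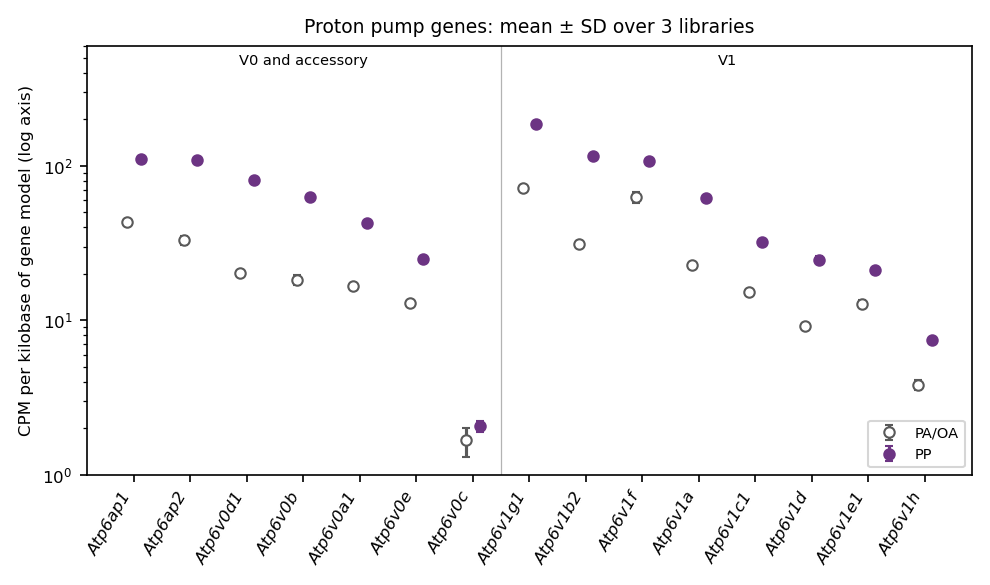
Level of each V-ATPase gene per length (CPM per kb, log axis), as the mean of 3 libraries with SD bars, open points for PA/OA and filled points for PP, V0 and accessory genes on the left and V1 genes on the right. Of the 15 genes, 14 were higher in PP beyond the test, and Atp6v0c is the lowest in both groups at 1.67 and 2.06 CPM per kb. The count of Atp6v0c is uncertain, since its annotated pseudogene Atp6v0c-ps2 drew more counts than the gene.

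Lysosome genes outside the 49 were taken from a list of 76 written from general knowledge. Of the 68 tested, 43 (63.2%) were higher, 15 (22.1%) were lower and 10 missed the threshold, and the median log2 fold change was 0.55. Over all genes these shares were 35.1% and 39.9%, and among genes with an average log2 CPM of 5 or more they were 60.8% and 24.8%, close to those of the list. Under scaling by library size alone the list's counts were 32 and 26. Of 27 further hydrolases, 20 (74.1%) were higher and 2 lower. The glycoprotein gene Creg1 rose by 1.84 on the log2 scale. Lysosomal acid phosphatase (Acp2) stood at 44.7, 43.5 and 43.8 CPM in PA/OA and 13.5, 11.5 and 13.3 CPM in PP. Its PP libraries were all far below, a log2 fold change of -1.78 ± 0.09 (edgeR adjusted p = 8.74e-14). The amidase gene Naaa fell by 0.43 on the log2 scale, and no longer passed with the abundance trend removed (-0.25, adjusted p = 0.0524).

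Of 18 further membrane protein genes, 12 (66.7%) were higher and 5 (27.8%) lower, again near the shares of abundant genes. The cholesterol transporter Npc1 rose by 1.57, the sialomucin Cd164 by 1.28 and Laptm4b by 0.97. The 5 lower genes included ion channels of the lysosome. Tpcn2, a calcium and sodium channel, had 13.6, 10.6 and 13.4 CPM in PA/OA and 4.04, 2.21 and 3.31 CPM in PP. The groups were wide apart, with a log2 fold change of -1.98 ± 0.19 (edgeR adjusted p = 3.8e-09). Its relative Tpcn1 was at -0.80 and the potassium and proton channel Tmem175 at -1.31. Cln3 (-1.58) and the nucleoside transporter Slc29a3 (-1.0) were the others; Tpcn1 and Slc29a3 were named after their values were seen.

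Of 10 genes that tag, carry or activate hydrolases, 6 (60%) were higher and 4 (40%) lower. Over all genes 35.1% were higher and 39.9% lower, and among genes with an average log2 CPM of 5 or more 60.8% and 24.8%. The higher share was near that of abundant genes only, the lower share near that of all genes only, so neither background matched both. The adaptor gene Gga2 rose by 1.64, the sorting receptor gene Sort1 by 0.99 and the cation-dependent mannose 6-phosphate receptor gene M6pr by 0.91 on the log2 scale. Of the enzymes that build and uncover the tag, Gnptg, the gamma subunit of the phosphotransferase, was higher (0.77), while Gnptab, its alpha and beta subunit precursor, at -0.16, and Nagpa, at -0.89, were lower, as were the sulfatase activator Sumf1 (-0.29) and the adaptor Gga3 (-0.16); Gnptab and Gnptg were named after their values were seen. None of the 4 lower calls held under every alternative: Gnptab lost the call with no filter (-0.14), without PA/OA replicate 1 (-0.13) and without PP replicate 1 (-0.14), 2 (-0.10) or 3 (-0.17). Gga3 lost it with no filter (-0.15) and without any library (-0.15 to -0.13) other than PA/OA replicate 2. Nagpa lost it with the abundance trend removed (-0.38), and Sumf1 there (-0.19) and without PA/OA replicate 3 (-0.25) or PP replicate 1 (-0.24).

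Of the V-ATPase isoforms and assembly factors beyond the 15, 13 were tested, with 5 (38.5%) higher, 4 (30.8%) lower and 4 that did not pass, near the 35.1% and 39.9% of all genes. The regulators Wdr7 (1.06) and Dmxl2 (1.03), the a3 isoform gene Tcirg1 (1.04), and the assembly factors Tmem199 (0.83) and Vma21 (0.29) rose. Vma21 no longer passed with upper-quartile scaling (0.05) and was at -0.15 with library size only. Other isoforms of the a subunit were lower: Atp6v0a2 had 47.0, 48.9 and 52.6 CPM in PA/OA and 33.1, 31.7 and 39.4 CPM in PP, a log2 fold change of -0.51 ± 0.08, while Atp6v0a4 was under 1 CPM in every library (-1.48). The assembly factor Ccdc115 was at -0.89 and Atp6v1g2 at -0.93. Atp6v0a4 lost the call with the abundance trend removed (-0.21), without PA/OA replicate 1 (-1.28) and without PP replicate 2 (-1.07), and Atp6v1g2 with the trend removed (-0.27), without PA/OA replicate 3 (-0.80) and without PP replicate 2 (-0.81) or 3 (-0.64). Tmem199, Vma21 and Atp6v0a2 were named after their values were seen. The osteoclast and kidney isoform genes Atp6v0d2, Atp6v1b1, Atp6v1c2 and Atp6v1g3 and the testis isoform gene Atp6v1e2 had too few counts to test, as had Ctsf, Ctsk and Ctss.

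In GENCODE M21, 17 of the 49 genes share exon bases with another annotated gene, and 9 share over 10% of them (Arsa, Arsb, Atp6v0b, Ctsa, Ctsb, Ctsd, Ctsl, Hexa and Sgsh). Among the further lysosome genes named here, Gnptg (49.5%), Tmem175 (35.3%), Acp2 (12.6%) and Sidt2 (10.4%) do so too. The sources used here do not give whether counting used strand, so part of the counts of these genes may belong to the overlapping gene. For Ctsd (34.4% of its exon bases, with Gm49369) and part of the Ctsl overlap (with Gm49230), the other gene lies on the same strand. Use of strand would not separate those counts. Cd63 also has an annotated pseudogene, Cd63-ps, but held 94.0% of the counts of that pair in each group.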

How the data were processed

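RNA libraries of AML12 cells, 3 labelled PA/OA and 3 labelled PP, were compared. The labels' protocols describe both ways of enriching mRNA, and unstranded and strand-specific kits, without saying which was used. The authors deposited 1 table of raw counts per gene with gene coordinates and a gene length. The submitters' processing notes name featureCounts, DESeq2 1.16.1 and the build mm10, with no roles. For the aligner, the annotation release and the use of strand, nothing is given in the sources used here. In the libraries 57.1% to 61.5% of counts from 1 to 20 were even, so the fit was repeated on halved counts. Of 54532 rows, 26561 had no count, and 0 sample columns were left unmapped.

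The count test was edgeR 4.0.16 in R 4.3.3 (filterByExpr, TMM, quasi-likelihood F-test, 1 fit over all genes, two-sided, Benjamini-Hochberg over the 15718 genes tested, threshold 0.05). CPM values are TMM-scaled, and per kb values divide them by the deposited gene length. An order of genes per kb therefore depends on that length as well as on counts. The code was tested on simulated data. Pairs of libraries within a group gave a chi-square per gene of 3.16 to 5.05 on halved counts, above that of sampling alone.

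The members and lists were chosen with earlier results of these data known. The text names all 49 members, up to 3 genes with the largest rise and 3 with the largest fall past the test in each further lysosome list, and genes of the marker lists (macrophage, hepatocyte, cholangiocyte, stellate and fibroblast, endothelial). Some genes that this rule names are not reported here. Alternatives were DESeq2 size factors, upper-quartile scaling, library size only, no filter, 1 CPM in 3 libraries, DESeq2 1.42.0, limma-voom (limma 3.58.1), a replicate block, protein-coding genes only, the lowess trend with abundance removed (span 0.4), halved counts and leaving out each library.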

Additional observations from a re-analysis of the deposited data

How the results depend on the processing

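Of 833 results for a member under an alternative (49 members, 17 alternatives), 815 kept their call, 8 gained a call, 5 lost it and 5 reversed. Results that passed in neither fit count as kept, even where the sign changed. Among such changes were Atp6v0c with library size only (-0.13) and, with the abundance trend removed, Idua (0.32) and Arsb (0.61). With library size only, 3235 genes of the whole table were higher, 8 members were lower, 26 further lysosome genes were lower, the member median was 0.75 and the summed level differed 1.86-fold. That scaling reversed the members Glb1 (-0.23), Man2b1 (-0.31), Ppt1 (-0.39) and Scarb2 (-0.19), and removing the abundance trend reversed Scarb2 (-0.21). Vma21, which is not a member, went to -0.15 with library size only, with no call. Among further lysosome genes, Hgsnat (-0.22), Tmem106b (-0.17) and Sidt2 (-0.13) went from higher to lower past the test with library size only, and Tmem106b did so with the trend removed (-0.29). These shifts follow from the scaling itself. Library size only lowers the fold changes of all genes together. Removing the trend shifts them by abundance, lower for abundant genes such as Tmem106b and higher for scarce ones such as Arsb (-0.10 to 0.61). The member median was 0.94 with upper-quartile scaling (sum 2.13-fold), 0.83 with the abundance trend removed, 1.13 with 1 CPM in 3 libraries, 1.10 with protein-coding genes only and 1.15 with halved counts, and 1.15 to 1.23 when 1 library was left out; for these last 4 the cause was not tested. Same-numbered libraries did not deviate together (correlations 0.005, 0.003 and -0.023, with 1 of 6 samples closest to its own number), and with a replicate block 40 members were higher and 2 lower, as without it, with 5427 genes higher and 6088 lower over the whole table. Depth limits the genes of a few CPM, such as Arsb, Idua and Atp6v0c.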
